A study of Homo sapiens with 47 samples.

Results

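The 248 protein-coding genes of human chromosome 19 whose symbol starts with ZNF, with ZNF473 left out, were described in HEK293T cells with and without a mutation of EAF1. They were 248 of 58395 genes in the count table, with 85 on the short arm (19p) and 163 on the long arm (19q). The family was chosen from the same contrast that is described here, after the medians of log2 fold change by chromosome arm were known and lay above 0 for 19p and 19q. The fold changes of these genes are therefore given as a description, with no test, and nothing is supported with them.

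Ribosomal RNA-depleted total RNA was sequenced from 3 wild-type libraries and 3 EAF1-mutant libraries of HEK293T, a human embryonic kidney line. EAF1 is a subunit of elongation complexes of RNA polymerase II, and the mutant line carries alanines at the part of EAF1 that binds the Mediator subunit MED26. The mutant cells are 1 clone made by CRISPR knock-in, so a property of this clone and an effect of the mutation cannot be told apart. Library totals ran from 52541541 to 59137210 counts in wild-type cells and from 53369621 to 66611451 counts in mutant cells, and the study states at least 3 biological replicates for each experiment without saying how the cultures of these libraries were kept apart. The p-values measure the spread between these libraries.

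ZNF genes encode proteins with arrays of C2H2 zinc fingers, short folds that hold a zinc ion and read DNA bases. Most of those on chromosome 19 lie in tandem clusters that grew by gene duplication, and many carry a KRAB box, which recruits TRIM28 and, through it, the histone methyltransferase SETDB1 to silence transposable elements. The clusters themselves carry histone H3 lysine 9 trimethylation over the 3′ ends of their genes, to which ZNF274 and the HUSH complex have been linked.

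The EAF1 gene (ENSG00000144597) had 57.4, 58.3 and 56.4 CPM (counts scaled to library size by the TMM method) in the wild-type libraries and 19.6, 17.9 and 18.7 CPM in the mutant libraries. The groups did not overlap, and the log2 fold change was -1.61 (SE 0.05, adjusted p = 2.48e-18, edgeR quasi-likelihood test with Benjamini-Hochberg adjustment, lower in 3 of 3 mutant libraries). A point mutation leaves an RNA that can still be counted, so this value does not check the labels.

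Among HEK293T markers, VIM, which encodes vimentin, had 380.2 ± 8.96 CPM in wild-type cells (SD, n = 3) and 199 ± 4.00 CPM in mutant cells. The keratin genes KRT18 and KRT8 had 34.4 ± 0.753 and 22.8 ± 1.44 CPM in wild-type and 60.5 ± 0.825 and 59.4 ± 0.945 CPM in mutant cells. The neurofilament gene NEFM had 62.3 ± 5.38 CPM and 25.1 ± 0.480 CPM, and its partner NEFL 53.4 ± 1.75 CPM and 48.0 ± 1.09 CPM. In the same order, LHX1, a kidney and neural factor, had 6.23 ± 0.163 CPM and 5.52 ± 0.280 CPM, while PAX2 stayed below 1.2 CPM in every library. Of the markers of other cell types, PTPRC, CD3E, ALB, MYH6 and PECAM1 were under 0.2 CPM in every library, and COL1A1 had 2.85 ± 0.584 CPM and 4.15 ± 0.152 CPM. In bulk RNA, fewer cells with a transcript and less of it per cell cannot be told apart.

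Taken without any filter, the 248 ZNF genes summed to 2821, 2867 and 2811 CPM in the wild-type libraries and to 3810.5, 3722 and 3755 CPM in the mutant libraries. The sum was higher in every mutant library than in every wild-type library, with a ratio of means of 1.33. In the same libraries the 267 ZNF genes of other chromosomes summed to 7513 ± 70.2 CPM in wild-type cells and to 7339 ± 58.5 CPM in mutant cells (SD, n = 3), a ratio of 0.977.

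The sum on 19p was 889 ± 4.55 CPM in wild-type cells and 1120 ± 23.0 CPM in mutant cells, and on 19q 1944 ± 25.6 CPM and 2642 ± 21.9 CPM. The ratios were 1.26 and 1.36. ZNF121 was the most abundant gene of the 19p sum, with 173 CPM in wild-type and 243 CPM in mutant cells, and ZNF146 that of the 19q sum, with 188 and 168 CPM.

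Consecutive ZNF genes of an arm were joined into a cluster where their starts lay at most 1 Mb apart, and a cluster had at least 5 genes. This gave 9 clusters with 238 genes, 4 on 19p (A to D, from the end of the short arm inwards) and 5 on 19q (A to E, from the centromere outwards), and left 10 genes outside. Coordinates are those of GENCODE 44 on GRCh38. The clusters 19p-A (chr19:2819868-2944971), 19p-B (chr19:7069703-9793180), 19p-C (chr19:11483427-12640098) and 19p-D (chr19:19668796-24129968) held 5, 16, 26 and 37 genes. The clusters 19q-A (chr19:34677639-34964229), 19q-B (chr19:36182276-37817300), 19q-C (chr19:43525497-45076478), 19q-D (chr19:51571283-53580269) and 19q-E (chr19:55476617-58481230) held 5, 26, 24, 40 and 59 genes.

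**Figure D1:**
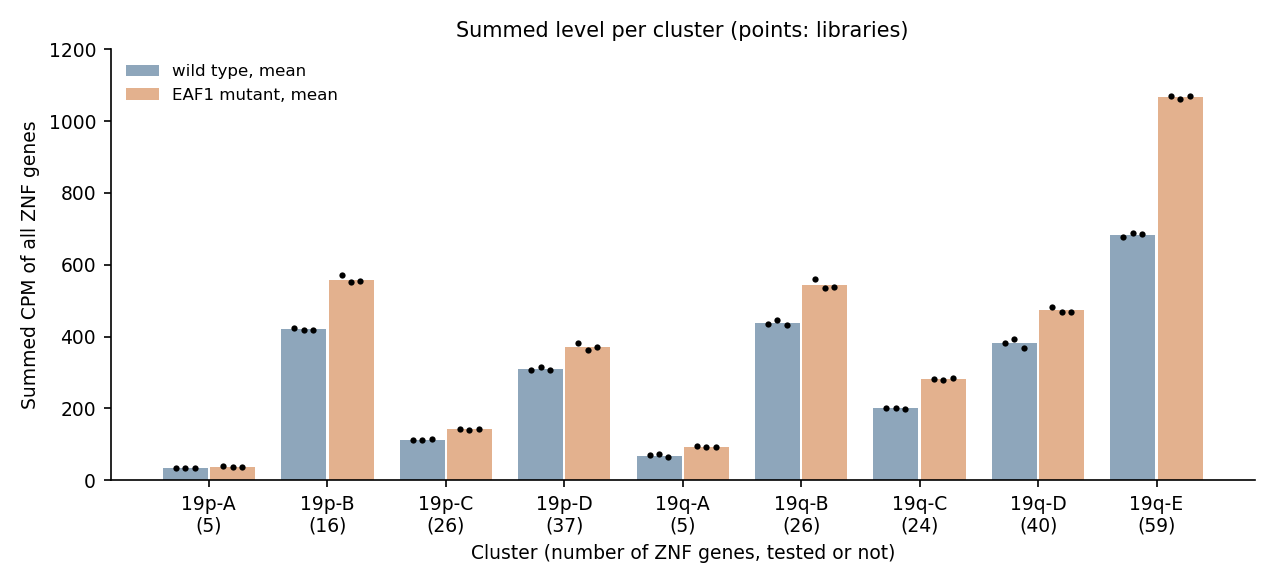
Summed CPM of all ZNF genes of each cluster of chromosome 19, tested or not, in wild-type and EAF1-mutant cells; bars are means of 3 libraries and points are libraries. The bars of 19q-E differ most, 683 CPM in wild-type and 1067 CPM in mutant cells, and those of 19p-A least, 34.8 and 37.3 CPM.

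The sum of cluster 19q-E was 683 ± 5.27 CPM in wild-type cells and 1067 ± 3.91 CPM in mutant cells, a ratio of 1.56. Cluster 19q-C had 200.3 ± 1.45 CPM and 282 ± 1.77 CPM, a ratio of 1.41, and the other 19q clusters had ratios from 1.24 to 1.37. On 19p the ratios were 1.07 in 19p-A, 1.33 in 19p-B, 1.26 in 19p-C and 1.20 in 19p-D. The 10 genes outside clusters summed to 183 ± 5.85 CPM and 193 ± 3.76 CPM, a ratio of 1.05.

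Levels between genes were compared as CPM per kilobase of merged exons. Over all 248 genes the median in wild-type cells was 1.30 CPM per kb, with 0.508 on 19p and 1.56 on 19q, against 3.14 for ZNF genes of other chromosomes and 2.14 for the other protein-coding genes outside chromosome 19. ZNF146 stood highest in wild-type cells at 45.4 ± 0.584 CPM per kb (SD, n = 3), and ZNF121 came next at 23.8 ± 0.435. ZNF146 encodes a protein of 10 finger matches with no KRAB match. ZNF460, ZNF428 and ZNF581 followed, at 13.4 ± 0.219, 11.7 ± 0.868 and 9.44 ± 0.211 CPM per kb.

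At the other end, 9 genes had at most 3 counts in each of the 6 libraries, among them ZNF558, ZNF534 and ZNF667, and 37 genes, 25 of them on 19p, did not pass the filter on low counts that precedes the fit. In 19p-D, 14 of 37 genes did not pass. ZNF43, ZNF93 and ZNF208 were among these, with 0.0817, 0.0187 and 0.0842 CPM in wild-type cells and at most 16 counts in any mutant library. ZNF93 is known to repress LINE-1 elements. No ZNF gene had at most 3 counts in every library of one group and 1 CPM or more in the other.

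The fit across all 28025 tested genes covered 211 of the 248 ZNF genes. Calls of genes needed a log2 fold change beyond 0.5 in either direction together with an adjusted p, by edgeR quasi-likelihood and Benjamini-Hochberg, of less than 0.01. Of all tested genes, 11.0% were called higher and 9.36% lower in mutant cells, and of the tested protein-coding genes 12.3% and 11.2%. Of the 211 ZNF genes, 85 were called higher and 7 lower. Since the family was chosen on this contrast, nothing is read from that difference in share.

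Without any filter, every mutant library lay above every wild-type library for 163 of the 248 genes and below for 15. Over all protein-coding genes these shares were 29.3% above and 28.3% below, and nothing is read from the comparison for the same reason.

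The median log2 fold change of the 211 tested genes was 0.40, with quartiles of 0.17 and 0.82, beside 0.01 over all tested genes. It was 0.42, 0.38 and 0.36 when each mutant library in turn was set against the wild-type mean. Scaling by library totals alone moved the median of all tested genes from 0.01 to 0.13 and that of the ZNF genes to 0.52.

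On 19p the median over 60 tested genes was 0.25, with 17 called higher and 4 lower. On 19q it was 0.45 over 151 tested genes, with 68 called higher and 3 lower. The difference between the arms was not tested. Without 19q-E the 19q median was 0.39 over 94 tested genes, with 32 called higher.

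**Figure D2:**
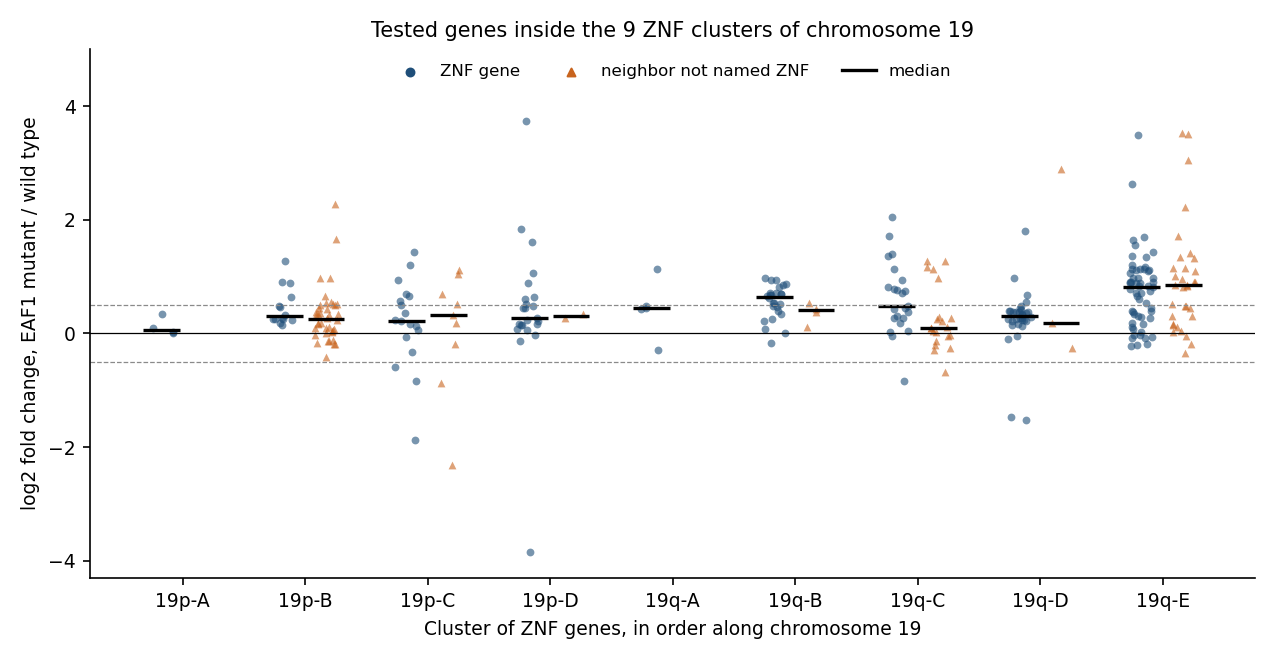
Log2 fold change, EAF1 mutant over wild type, of each tested ZNF gene (circles) and of each tested protein-coding neighbor not named ZNF (triangles) inside the 9 clusters, in order along the chromosome; black lines are medians and dashed lines mark 0.5 and -0.5. The ZNF medians are 0.64 in 19q-B and 0.82 in 19q-E, and between 0.06 and 0.49 in the other clusters.

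The clusters differed in how the log2 fold changes were spread. In 19q-B all 26 genes were tested, 17 were called higher and none lower, and the quartiles were 0.42 and 0.71. In 19q-D the median was 0.31 with quartiles of 0.22 and 0.40. There 28 of 32 tested genes lay above 0, but 3 were called higher (ZNF577, ZNF350 and ZNF83) and 2 lower. In 19p-C, 5 of 18 tested genes were called higher and 3 lower. The shares called higher and lower were 9.38% and 6.25% in 19q-D, and 27.8% and 16.7% in 19p-C. Over all tested protein-coding genes they were 12.3% and 11.2%, and nothing is read from the comparison. The 9 tested genes outside clusters had a median of 0.01, and none was called: the log2 fold changes ran from -0.49 in ZNF536, a neural factor, to 0.31 in ZNF780B.

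The ZNF genes of other chromosomes had a median of 0.05 over 248 tested genes, with 26 called higher and 27 lower. Those of them with a KRAB match had a median of 0.16 over 70 tested genes. Within the chromosome 19 family, the 147 tested genes with a match to the KRAB A box had a median of 0.43 and the 64 without one 0.37. The pattern that was searched misses divergent boxes, for example most of 19q-C, where 2 of 24 genes matched.

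**Figure D3:**
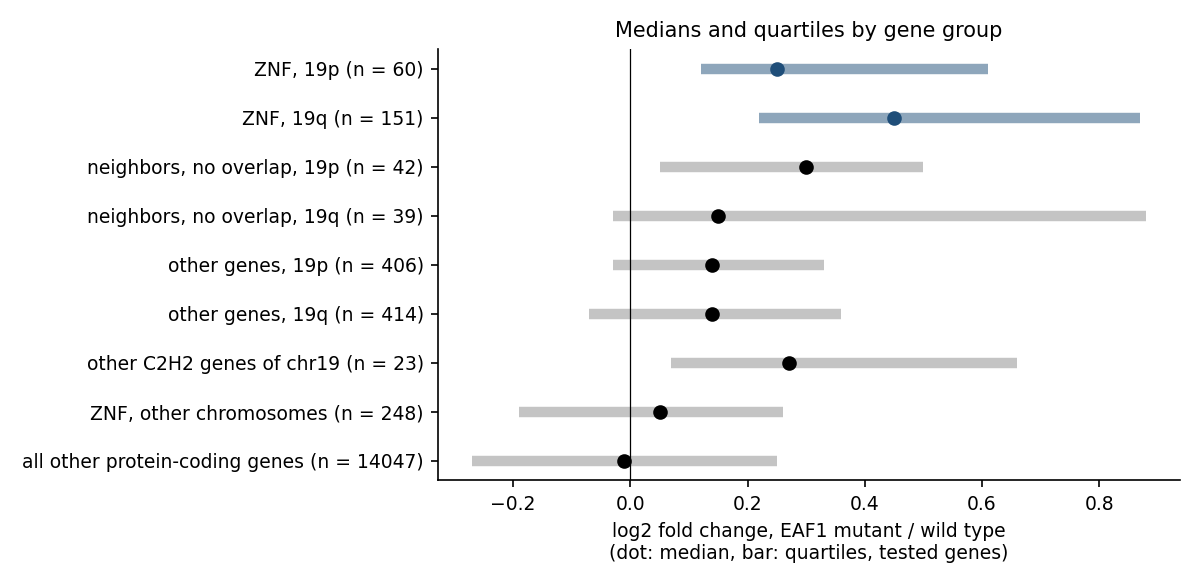
Median (dot) and quartiles (bar) of the log2 fold change, EAF1 mutant over wild type, over the tested genes of 9 gene groups; n is the number of tested genes. The ZNF genes of 19q stand at 0.45 and those of 19p at 0.25, the other genes of both arms outside the clusters at 0.14, and ZNF genes of other chromosomes at 0.05. Neighbors without overlap stand at 0.30 on 19p and 0.15 on 19q, and C2H2 genes of chromosome 19 not named ZNF at 0.27. All other protein-coding genes stand at -0.01.

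Inside the cluster spans lay 170 protein-coding genes not named ZNF, of which 112 were tested. Their median log2 fold change was 0.33, with 37 called higher and 2 lower. However, 33 of the 170 overlapped a ZNF gene, 23 of them loci with no symbol, so they may share reads with it. The 31 tested neighbors with such an overlap had a median of 0.54, and the 81 without it 0.24, with 20 called higher and none lower. At a mean of 1 CPM or more, 65 neighbors without overlap had a median of 0.15. Under the same limit the genes of chromosome 19 outside the cluster spans had 0.12, and the ZNF genes 0.40.

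On 19p the 42 tested neighbors without overlap had a median of 0.30, and on 19q the 39 such neighbors had 0.15. At a mean of 1 CPM or more these medians were 0.25 and 0.10. The 19 such neighbors inside 19q-E had a median of 0.52, with 6 called higher, but the 11 at a mean of 1 CPM or more had 0.15. All 36 such neighbors of 19q-E, tested or not, summed to 708 ± 33.0 CPM in wild-type and 698 ± 9.17 CPM in mutant cells. The other 820 tested genes of chromosome 19, outside the cluster spans, had a median of 0.14, with the same value on 19p and on 19q, and 108 were called higher and 25 lower. Protein-coding genes of other chromosomes not named ZNF had a median of -0.01 over 14047 tested genes. Whether a change in copy number of chromosome 19 in the clone takes part was not tested.

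HNRNPM, an RNA-binding protein gene inside 19p-B, stood at 328 CPM in wild-type and 304 CPM in mutant cells. The summed CPM of all 170 neighbors was 2655 ± 79.8 in wild-type and 2785 ± 29.2 in mutant cells (SD, n = 3), a ratio of 1.05, beside the 1.33 of the ZNF genes.

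Among the neighbors at 1 CPM or more, ZSCAN18 had the highest log2 fold change, 3.52 (SE 0.11). It had 0.954, 0.771 and 0.915 CPM in the wild-type libraries and 10.4, 10.2 and 9.91 CPM in the mutant libraries. ZSCAN18 encodes another C2H2 protein, with a SCAN domain in place of a KRAB box, and its 3′ end overlaps that of ZNF135, which lies on the opposite strand. VN1R1, a vomeronasal receptor gene next to ZNF772, had 0.725 and 3.43 CPM and a log2 fold change of 2.23. The other 3 of the 5 highest were loci with no symbol that overlap ZNF547, ZNF772 and ZNF83 on the same strand. The values of these loci may therefore come from reads of the ZNF genes. VN1R1 lies inside the locus that overlaps ZNF772, on the same strand, so it may share reads with that locus.

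The lowest log2 fold change among these neighbors, -0.88, was that of a locus with no symbol in 19p-C that overlaps ZNF709 on the same strand and has nearly the same counts, so it may repeat the -0.84 of ZNF709. CD320, the receptor for transcobalamin, had 58.9 and 44.2 CPM and a log2 fold change of -0.41, A1BG -0.34, APOC1 -0.30 and SPACA6 -0.26, and none of the 4 was called.

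Cluster 19q-E at the end of the long arm held the longest stretch of called genes. From ZNF543 to ZNF586 (chr19:57320472-57819939), 20 consecutive tested ZNF genes were called higher, with log2 fold changes from 0.60 to 1.69 and a median of 1.11. The next longest runs were 9 genes from ZNF345 to ZNF527 in 19q-B, with values from 0.63 to 0.97, and 9 genes from ZNF814 to ZNF274 in 19q-E. In 19q-C, 7 consecutive genes from ZNF221 to ZNF224 lay between 0.75 and 1.72. ZNF224, a repressor that binds the aldolase A gene and partners with WT1, had 19.8 and 34.1 CPM.

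**Figure D4:**
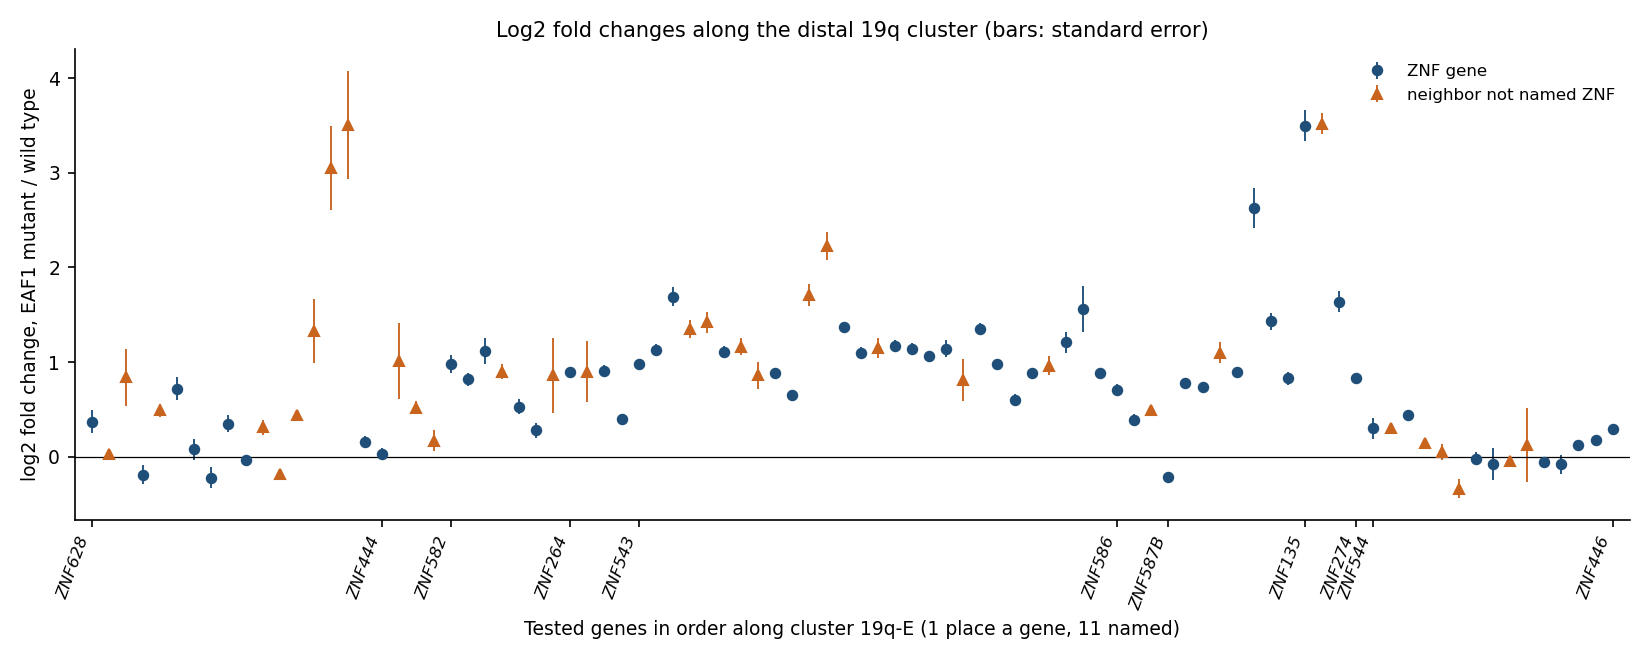
Log2 fold change, EAF1 mutant over wild type, of the 90 tested genes of cluster 19q-E in their order along the chromosome, 1 place a gene; circles are ZNF genes, triangles neighbors, and bars the standard error. Values near 1 fill the stretch from ZNF264 to ZNF274, and from ZNF544 on the ZNF genes lie between -0.08 and 0.44.

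The calls of 19q-E ended between ZNF274 and ZNF544. Taking the stretch from ZNF264 to ZNF274 (chr19:57191500-58213562), chosen after its values were seen, 31 of 34 tested ZNF genes were called higher, with a median log2 fold change of 0.98, and ZNF460, ZNF552 and ZNF587B were not. ZNF587B stood at 41.2 CPM in wild-type and 35.7 CPM in mutant cells. ZNF274, the last gene of the stretch, had 21.5, 20.8 and 19.6 CPM in the wild-type libraries and 36.9, 36.9 and 36.4 CPM in the mutant libraries.

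From ZNF544, the next gene, to ZNF446 (chr19:58228594-58481230), none of 9 tested ZNF genes and none of 6 tested neighbors was called, and the medians were 0.12 and 0.08. The log2 fold changes themselves did not end at 1 place: ZNF544 had 0.30 and ZNF8 0.44, above the 0.40 of ZNF460 inside the stretch. At the other side of the cluster, from ZNF628 to ZNF444 (chr19:55476617-56160893), 1 of 9 tested ZNF genes was called higher (ZNF524), with a median of 0.08. The 9 tested neighbors there had a median of 0.49, and 3 were called higher. Over the 7 that overlap no ZNF gene the median was 0.84, the value of SSC5D, which was not called. SSC5D and the 3 called genes, NLRP9, RFPL4A and RFPL4AL1, had means under 1 CPM in both groups. RFPL4A and RFPL4AL1 reached 3.05 and 3.51 at these levels. Of the 7, NAT14, U2AF2 and EPN1 were above 1 CPM and had 0.03, -0.18 and 0.44. In the stretch from ZNF264 to ZNF274, 13 neighbors were tested and 11 called higher, with a median of 1.15. Of the 13 neighbors, 2 overlap no ZNF gene, AURKC (0.90, not called) and VN1R1 (2.23, called higher).

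Across the 211 tested ZNF genes, Spearman's rho between the log2 fold change of a gene and that of the nearest tested gene not named ZNF was 0.417. With neighbors that overlap no ZNF gene it was 0.282, and without 19q-E it was 0.103 over 154 genes. Between adjacent ZNF genes of a cluster that do not overlap it was 0.426 over 166 pairs. Neighbors serve several genes, the genes share their libraries, and related copies can share reads, so these values are a description.

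The highest log2 fold change of the family at a mean of 1 CPM or more was that of ZNF682 in 19p-D. It had 0.212, 0.257 and 0.187 CPM in the wild-type libraries and 2.82, 2.96 and 2.95 CPM in the mutant libraries. The groups were far apart, with a log2 fold change of 3.73 (SE 0.19). ZNF135 in 19q-E had 0.283, 0.336 and 0.317 CPM in wild-type and 3.66, 3.38 and 3.59 CPM in mutant libraries, a log2 fold change of 3.50 (SE 0.16). ZNF418, in the same cluster, had 0.212, 0.316 and 0.317 CPM and 1.68, 1.92 and 1.65 CPM, a log2 fold change of 2.63 (SE 0.21). In all of them the wild-type libraries were low but not empty.

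ZNF83 in 19q-D had 3.32, 3.50 and 3.06 CPM in wild-type and 12.1, 10.8 and 11.9 CPM in mutant libraries. It stood apart from its cluster, where the third quartile of the log2 fold change was 0.40 and its own value was 1.81. ZNF85 (1.83), ZNF284 (1.72), ZNF547 (1.69) and ZNF329 (1.64) completed the 8 highest, each with groups that did not overlap.

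**Figure D5:**
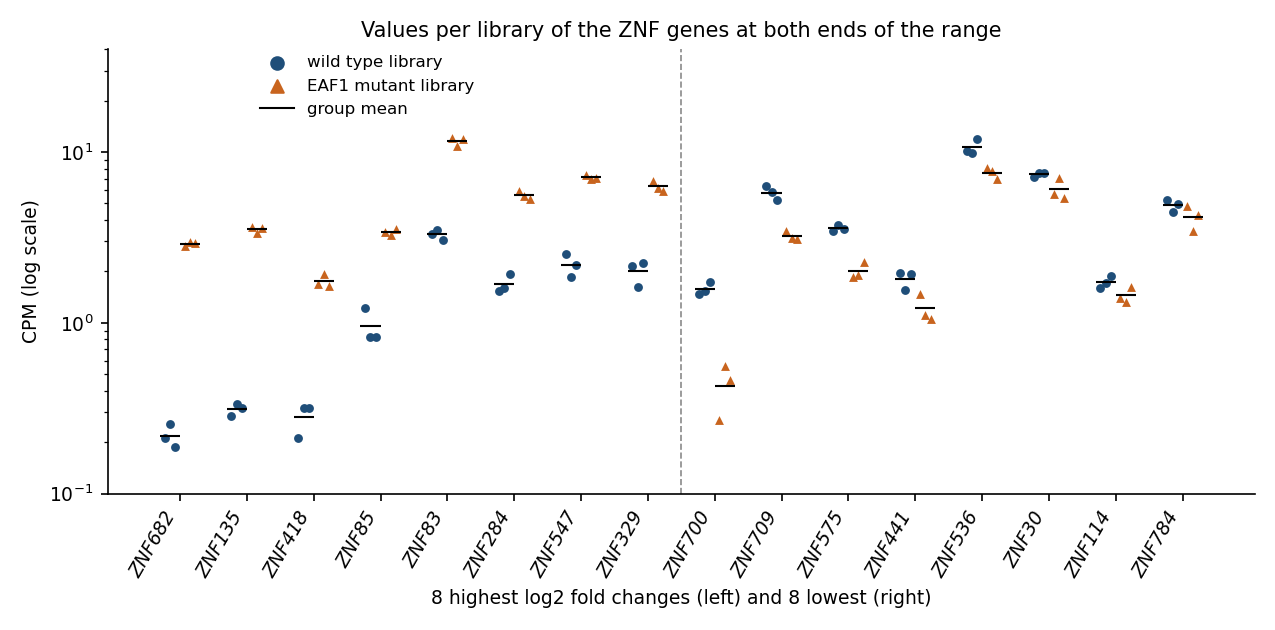
CPM on a log scale in each of 3 wild-type (circles) and 3 EAF1-mutant libraries (triangles) for the ZNF genes with the 8 highest and the 8 lowest log2 fold changes among those with a mean of at least 1 CPM; lines are group means. ZNF682, ZNF135 and ZNF418 lie under 0.4 CPM in every wild-type library and over 1.6 CPM in every mutant library.

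ZNF91, the primate repressor of SVA elements, had 7.39, 7.57 and 7.52 CPM in wild-type and 23.5, 22.9 and 21.7 CPM in mutant libraries, and was named after its values were seen. Its 31 finger matches compare with a median of 12 over the 248 proteins and a highest count of 36 in ZNF208. ZNF154, ZNF471 and ZNF582, whose promoters are often methylated in tumors, had 1.77, 1.56 and 3.53 CPM in wild-type and 4.11, 3.38 and 6.96 CPM in mutant cells. They too were named after their values were seen, and no methylation was measured in the files analysed here.

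Of the 7 genes called lower, ZNF726 in 19p-D had the lowest log2 fold change, -3.85 (SE 0.26). It had 78, 77 and 88 counts in the wild-type libraries and 8, 6 and 5 counts in the mutant libraries, and its mean over all 6 libraries was below 1 CPM. ZNF700 in 19p-C had 1.48, 1.54 and 1.74 CPM in wild-type and 0.268, 0.557 and 0.463 CPM in mutant libraries, a log2 fold change of -1.88 (SE 0.21). Both lie among genes of the same clusters that were higher: ZNF91 is in 19p-D, and ZNF44, with a log2 fold change of 1.44, is in 19p-C. ZNF726, ZNF880, ZNF331 and ZNF44, like ZNF224 and the genes named from runs of calls, were chosen after their values were seen.

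ZNF709 (-0.84), ZNF575 (-0.83) and ZNF441 (-0.59) were called lower at a mean of 1 CPM or more. The call of ZNF441 was lost under 6 other settings, among them DESeq2 and scaling by library totals alone. ZNF880 had 21, 30 and 25 counts in wild-type and 22, 3 and 5 counts in mutant libraries, so that 1 mutant library came close to the wild-type level. ZNF331, an imprinted gene, had 31, 38 and 35 counts and 8, 13 and 22 counts. ZNF536, ZNF30, ZNF114 and ZNF784, the rest of the 8 lowest at 1 CPM or more, were not called.

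Some of the most abundant genes of the family differed little. Among the 30 highest wild-type levels per kb, the smallest differences were those of ZNF780A (40.3 and 40.4 CPM in wild-type and mutant cells), ZNF526 (19.6 and 19.8), ZNF581 (15.4 and 15.1), ZNF100 (30.3 and 29.7) and ZNF480 (29.8 and 28.8). Spearman's rho between the wild-type level per kb and the log2 fold change was -0.308 over the 211 tested genes, and both measures contain the wild-type values. Between the number of finger matches and the log2 fold change rho was 0.0617.

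To show how related copies resemble each other at the gene start, promoters were compared, taken from RefSeq (GRCh38.p14) as 250 bases before to 50 bases after the start. Of the 248 genes 218 had an entry. Printed are the 250 bases before the start for genes at a mean of 1 CPM or more. These are the 4 highest, the 3 highest of the 20-gene run of 19q-E with an entry, and ZNF700. Capitals mark, on either strand, the ETS core CCGGAAG, the CCAAT-box word CCAATCA and the longer word GAACTACATTACCCAG.
ZNF682 (chr19:20039506-20039755, - strand): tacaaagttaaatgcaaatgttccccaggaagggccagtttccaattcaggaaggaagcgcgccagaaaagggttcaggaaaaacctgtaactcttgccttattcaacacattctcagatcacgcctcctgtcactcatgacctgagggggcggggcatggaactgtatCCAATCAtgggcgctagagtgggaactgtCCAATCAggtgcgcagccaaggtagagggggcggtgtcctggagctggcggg
ZNF85 (chr19:20923001-20923250, + strand): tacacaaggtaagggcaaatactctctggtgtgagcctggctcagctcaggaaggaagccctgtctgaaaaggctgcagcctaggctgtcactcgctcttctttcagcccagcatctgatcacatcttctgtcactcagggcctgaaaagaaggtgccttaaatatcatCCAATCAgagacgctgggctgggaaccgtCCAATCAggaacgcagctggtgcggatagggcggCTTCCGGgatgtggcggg
ZNF700 (chr19:11924857-11925106, + strand): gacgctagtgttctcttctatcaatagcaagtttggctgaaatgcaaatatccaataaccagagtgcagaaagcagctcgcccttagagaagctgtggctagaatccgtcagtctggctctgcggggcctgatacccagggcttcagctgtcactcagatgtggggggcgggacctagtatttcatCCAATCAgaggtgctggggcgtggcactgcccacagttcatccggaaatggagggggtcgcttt
ZNF135 (chr19:58058989-58059238, + strand): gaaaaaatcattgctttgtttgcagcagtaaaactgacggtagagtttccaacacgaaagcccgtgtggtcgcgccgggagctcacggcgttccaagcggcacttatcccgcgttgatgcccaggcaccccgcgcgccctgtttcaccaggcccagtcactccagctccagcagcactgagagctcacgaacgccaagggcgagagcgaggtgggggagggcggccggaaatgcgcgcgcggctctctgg
ZNF418 (chr19:57935403-57935652, - strand): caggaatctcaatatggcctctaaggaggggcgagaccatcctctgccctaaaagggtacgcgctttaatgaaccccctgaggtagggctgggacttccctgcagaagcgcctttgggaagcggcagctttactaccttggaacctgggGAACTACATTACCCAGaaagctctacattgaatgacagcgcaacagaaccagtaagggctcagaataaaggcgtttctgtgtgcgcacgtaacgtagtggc
ZNF772 (chr19:57477567-57477816, - strand): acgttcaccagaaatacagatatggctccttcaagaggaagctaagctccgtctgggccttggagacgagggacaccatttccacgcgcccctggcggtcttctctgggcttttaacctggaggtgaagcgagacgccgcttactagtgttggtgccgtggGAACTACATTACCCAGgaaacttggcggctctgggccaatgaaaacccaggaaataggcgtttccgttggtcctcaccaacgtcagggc
ZNF530 (chr19:57599635-57599884, + strand): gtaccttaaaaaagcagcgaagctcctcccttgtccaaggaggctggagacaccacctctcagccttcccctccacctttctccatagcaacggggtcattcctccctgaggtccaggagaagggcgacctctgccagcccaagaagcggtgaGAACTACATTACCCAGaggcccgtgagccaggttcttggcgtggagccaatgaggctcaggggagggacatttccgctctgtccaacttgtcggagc
ZNF547 (chr19:57363301-57363550, + strand): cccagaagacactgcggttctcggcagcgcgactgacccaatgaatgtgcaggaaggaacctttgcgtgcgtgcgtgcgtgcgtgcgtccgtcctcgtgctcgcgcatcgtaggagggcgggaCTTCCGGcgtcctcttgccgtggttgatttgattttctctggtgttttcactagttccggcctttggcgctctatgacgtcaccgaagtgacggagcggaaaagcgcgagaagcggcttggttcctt

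The word GAACTACATTACCCAG is the longest run shared by at least 3 of the 8 printed sequences. It and CCAATCA were chosen after the sequences were seen. ZNF418, ZNF772 and ZNF530 hold the longer word, which resembles the site known for the activator ZNF143. It was in 9 of 35116 promoters of all genes (0.0256%), and 8 of these were ZNF genes of 19q-E: ZNF749, ZNF772, ZNF530, ZNF586, ZNF587B, ZNF814, ZNF587 and ZNF418. Their log2 fold changes ran from -0.21 in ZNF587B to 2.63 in ZNF418. All lie in the stretch from ZNF264 to ZNF274, where 31 of 34 tested ZNF genes were called higher, so 7 of 8 among them is near the share of the stretch. The word was also taken from promoters printed because their genes had high fold changes.

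CCAATCA, which contains the CCAAT box read by NF-Y, was in 29 of 29 promoters of 19p-D, 23 of 25 of 19p-C and 4 of 5 of 19p-A, but in none of 14 of 19p-B. On 19q it was in 5 of 54 of 19q-E and in none of 25 of 19q-B. Its share was 6.95% over all promoters, 8.83% over those of protein-coding genes, 15.7% over those of ZNF genes of other chromosomes and 29.4% over the 218 ZNF genes. The printed promoters of ZNF682, ZNF85 and ZNF700 hold it, 2 of which belong to higher genes and 1 to a lower gene. Of the 64 ZNF genes with the word, 47 were tested, with 15 called higher and 4 lower. Among all 189 tested ZNF genes with an entry, 74 were called higher and 7 lower. The difference was not tested.

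CCGGAAG, the core read by ETS factors such as GABPA, was in 45.4% of the ZNF promoters, in 10.3% of all promoters, in 14.4% of those of protein-coding genes and in 34.1% of those of ZNF genes of other chromosomes. Of the 74 called-higher genes with an entry 39 held it, and of 108 tested genes that were not called 45. TCTCGCG was in 4.59% of the ZNF promoters, 3.49% of all promoters and 5.10% of those of protein-coding genes. In the same order GCATGCGC was in 4.13%, 3.05% and 4.25%, and TATAAA in 1.83%, 11.5% and 9.61%, all on both strands. The words are a description of these windows and not sites of binding.

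The number of CG pairs in the 300 bases had a median of 20 over the ZNF promoters, 15.5 on 19p and 23 on 19q, beside 22 for protein-coding genes. In 19p-D the median was 10. Among the printed promoters ZNF135 held 32 CG pairs in the 300 bases and ZNF682 held 9, although their log2 fold changes were close. Spearman's rho between CG pairs and the log2 fold change was -0.0894 over 189 tested genes.

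Of 25 genes that work with KRAB proteins or place and read the marks they recruit, 24 were tested, with none called higher and 3 called lower, beside 12.3% and 11.2% of all tested protein-coding genes. The count of lower genes is near that share and was not tested. TASOR, the scaffold of the HUSH complex, stood at 146 ± 7.90 CPM in wild-type and 77.6 ± 1.27 CPM in mutant cells (SD, n = 3), a log2 fold change of -0.91 (SE 0.04, adjusted p = 1.04e-14 by edgeR, lower in 3 of 3 mutant libraries). MPHOSPH8, the chromodomain subunit of HUSH, had 45.5 ± 3.26 and 26.2 ± 1.18 CPM (log2 fold change -0.80), while the third subunit PPHLN1 had 78.9 ± 0.599 and 80.6 ± 2.46 CPM. SUV39H2, a histone H3 lysine 9 methyltransferase, had 63.4 ± 1.94 and 42.7 ± 1.77 CPM (log2 fold change -0.57).

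TRIM28, the corepressor of KRAB proteins, stood at 389 CPM in wild-type and 369 CPM in mutant cells. SETDB1 had 83.3 ± 1.81 and 64.5 ± 0.929 CPM, a log2 fold change of -0.37, and its partner ATF7IP 64.2 ± 3.84 and 87.4 ± 0.731 CPM, a log2 fold change of 0.45. Neither reached the fold limit of a call, though the libraries of the groups did not overlap. CBX1 (-0.32), MORC2 (0.36), EHMT1 (0.39), CHD3 (0.23) and SUV39H1 (-0.19) also stayed under it. CBX3, CBX5, CHD4, HDAC1, HDAC2, DNMT1, DNMT3A, DNMT3B, UHRF1, SMARCAD1, EHMT2 and SETDB2 lay between -0.14 and 0.04, and ZFP57 was not tested. Whether the levels of these genes bear on the ZNF clusters was not tested.

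The lncRNA genes inside the cluster spans had a median log2 fold change of 0.62 over 110 tested genes, with 44 called higher and 2 lower, and such genes can overlap ZNF genes on either strand. The study names a stranded library kit. How the counting treated strand and reads with several places is not stated in the sources at hand. Reads of such pairs may be assigned to either gene. The 55 ZNF genes that overlap another ZNF gene, and near-identical copies such as ZNF585A and ZNF585B or ZNF587 and ZNF587B, are uncertain in the same way. The median of the 159 tested ZNF genes that overlap no other was 0.40.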

How the data were processed

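RNA-seq counts per gene, deposited by the authors as whole reads, were used as they stand. The authors made them from 100 bp paired-end reads of rRNA-depleted RNA with HISAT2 2.3.4.1, GRCh38 and Rsubread. The submitters' processing notes name bcl2fastq 2.18, Trimmomatic 0.38, R 4.0.2 and DESeq2 1.28.1, while the methods name Trim Galore. The library kit was a stranded one, but the settings of the counting for strand and multimapping are not stated in the sources at hand. The 6 libraries were fitted in edgeR 4.0.16 (R 4.3.3) with TMM scaling, filterByExpr and the quasi-likelihood test over 28025 genes, which was tested on simulated data (its pass criterion was revised after the first run). DESeq2 1.42.0 was an alternative. The biological coefficient of variation was 4.11%, and counts of replicates differed by more than sampling noise in each pair.

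Positions, exon lengths and protein-coding status came from GENCODE 44, the arms were divided at 26 Mb, and finger and KRAB matches were counted in its translated canonical coding sequences. Named genes were EAF1, the pathway list, the 8 highest and 8 lowest ZNF genes at a mean of 1 CPM, the 5 highest levels, the 5 smallest differences among the 30 highest levels, and the 5 highest and 5 lowest neighbors. The members and lists were chosen with earlier results of these data known. Neighbor overlap, the stretches of 19q-E and added promoter words were chosen after seeing the data.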

Additional observations from a re-analysis of the deposited data

How the results depend on the processing

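The 4 medians that were computed again, of the tested ZNF genes, of 19p, of 19q and of neighbors inside cluster spans, stayed above 0 under the settings tried. Scaling by library totals alone gave 0.52 for the tested ZNF genes, 0.37 on 19p, 0.57 on 19q and 0.45 for neighbors inside cluster spans, along with a shift of all genes to 0.13, and 109 genes called higher against 85. A filter at a mean of 1 CPM gave 0.27 on 19p and 0.31 for neighbors. Under it 197 ZNF genes were tested and 3 called lower, and no filter gave 0.28 on 19p. Above a log2 fold change of 1, 31 genes were called higher and 4 lower, and with no fold limit 145 and 11. Clusters joined at 0.5 Mb gave neighbors a median of 0.49. Added after seeing the data, leaving out 19q-E gave 0.36 for all ZNF genes, 0.39 on 19q and 49 called higher, and neighbors had 0.24 without overlap and 0.31 without C2H2 genes.

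Leaving out 1 library at a time gave medians from 0.38 to 0.44 for the ZNF genes, 0.23 to 0.26 on 19p, 0.43 to 0.47 on 19q and 0.27 to 0.34 for neighbors, with 82 to 89 genes called higher and 5 to 8 lower. The replicate numbers do not pair the libraries (correlations of deviations from -0.03 to 0.035). With the replicate block, 86 genes were called higher and 7 lower, 85 and 7 of them shared, and the median was 0.40. Of the values of named genes under other settings, 369 kept their side of the threshold, 9 came to pass it (ZNF536, ZNF121 and ZNF460), and 6 lost it (ZNF441). ZNF700, called lower in the main fit, had no value under the filter at a mean of 1 CPM. No named gene that was called turned its direction, and genes outside the naming rule were not followed one by one. Among genes near 0 that were never called the sign did change: under library totals alone ZNF100 went from -0.03 to 0.08, ZNF480 from -0.04 to 0.07 and ZNF581 from -0.03 to 0.09. ZNF526 went from 0.01 to -0.05 without wild-type replicate 2 and to -0.01 without mutant replicate 2, and ZNF780A lay on either side of 0.

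Genes under 1 CPM rest on few counts, and 37 ZNF genes were too low to fit. Copies that share sequence can exchange reads.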
